A study of Bos taurus with 53 samples.

Results

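The genes described here are 8 transcription factors of the trophectoderm, the outer epithelium of the embryo: GATA2, GATA3, TFAP2A, TFAP2C, ETS2, DLX3, DLX5 and TEAD4. They were chosen by symbol, and all 8 were found among the 24596 rows of the deposited gene table. All exon reads of the 8 genes were uniquely placed (100%), so none of their values rests on reads shared with a related gene.

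The trophectoderm forms first at the blastocyst stage, encloses the inner cell mass and later becomes the fetal part of the placenta. In cattle it does not implant at once: after hatching the conceptus grows from a sphere through an ovoid to a tube, while the trophectoderm secretes interferon tau, the signal by which the cow recognises the pregnancy. TEAD4 is the DNA-binding partner of the Hippo pathway coactivator YAP1 and, in the mouse, acts at the top of the programme. GATA2 and GATA3 are zinc finger factors, and TFAP2A and TFAP2C are AP-2 factors, that switch on trophoblast genes downstream of it. ETS2 binds the promoter of the interferon tau genes, and DLX3 acts with it there. DLX5 is a second homeobox factor of the distal-less family that is found in trophoblast.

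On the UMD3.1 assembly the deposited table places GATA2 at chr22:60016984-60024586 (ENSBTAG00000019707), GATA3 at chr13:15984601-16002940 (ENSBTAG00000017243), TFAP2A at chr23:45480545-45499034 (ENSBTAG00000001250) and TFAP2C at chr13:59903159-59912715 (ENSBTAG00000002065). ETS2 lies at chr1:152880453-152890252 (ENSBTAG00000009214), DLX3 at chr19:37294969-37300144 (ENSBTAG00000017409), DLX5 at chr4:14291966-14296237 (ENSBTAG00000018645) and TEAD4 at chr5:107264249-107325273 (ENSBTAG00000019788).

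The 53 libraries came from 30 bovine embryos (Bos taurus) that developed from oocytes matured in vitro for 24 h in 1 of 3 serum-free media. CONTROL medium held neither fatty acids nor solvent. BASAL medium held stearic acid at 28 µM, palmitic acid at 23 µM and oleic acid at 21 µM in 0.45% ethanol, and HIGH PA medium raised palmitic acid to 150 µM with the same stearic acid, oleic acid and ethanol. All embryos were then fertilized and cultured in the same way, transferred to 7 recipient cows and flushed on day 14, where their shape was recorded and most were dissected into the embryonic disc (ED) and the extra-embryonic tissue (EX). The ED libraries number 12 BASAL, 8 HIGH PA and 3 CONTROL, and the EX libraries 14 BASAL, 10 HIGH PA and 4 CONTROL. A further 2 HIGH PA embryos were sequenced undissected. Embryos of the same cow and medium are taken here to share a flush. They are not independent of each other, and all CONTROL embryos came from cow 813. By shape, the EX libraries were 9 ovoid, 2 spherical and 17 tubular, and the ED libraries 8 ovoid and 15 tubular. Both spherical EX libraries were HIGH PA.

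Total exon reads ran from 6814 to 6167850 in ED and from 9810 to 19533821 in EX. ED BASAL replicate 7 and EX BASAL replicate 7, which come from different embryos, each held under 10000 reads. Replicate numbers do not tie the 2 tissues together. Both libraries stayed in the tests within their tissue. Only the ED library entered the paired test, since the EX library has no sequenced disc. Both are left out of the levels given below, which therefore rest on 22 ED and 27 EX libraries. The tissue labels could be checked on SOX2, an epiblast factor, which had a median of 15.2 read counts scaled to the total exon reads of each library (CPM, where 1000000 is the total) in ED and at most 0.356 CPM in EX. ED BASAL replicate 12 had 0 reads of SOX2, EOMES and TF among 2500029, which allows up to 1.20 CPM of each, and its 11 measured epiblast markers summed to 169 CPM against at least 361 CPM in every other disc. At the other end, ED HIGH PA replicate 3 had the highest epiblast sum, 1665 CPM, and the lowest sum of the 8 measured trophoblast markers, 8708 CPM. That trophoblast sum lay between 8708 and 22608 CPM in ED and between 19209 and 33884 CPM in EX, so trophoblast markers were present in every disc as dissected. In such bulk samples fewer cells of a type and less RNA per cell cannot be told apart. RNA of the discs and of the extra-embryonic tissue was extracted with different kits, per the labels, and 21 of the 23 ED libraries but 3 of the 28 EX libraries were on lanes 1 and 2. Tissue, kit and, for nearly all libraries, lane cannot be told apart.

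All 8 factors had reads in each of the 27 EX libraries. In EX, GATA2 ran from 198 CPM through a median of 275 CPM to 692 CPM, and TFAP2C from 141 through 279 to 459 CPM. ETS2 ran from 48.7 through 128 to 329 CPM, and TFAP2A from 44.4 through 81.3 to 115 CPM. These were the most abundant by CPM. GATA3 ran from 14.3 through 58.1 to 86.0 CPM, with its lowest value in EX BASAL replicate 11, the EX library with the largest share of mitochondrial reads, 20.9%. DLX3 ran from 23.7 through 43 to 81.4 CPM. DLX5 ran from 2.94 through 35.3 to 62.9 CPM, and TEAD4 from 17.6 through 27.2 to 48.7 CPM.

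Levels of different genes can be compared only per length of transcript, so CPM was divided by exon length in kilobases. On that scale the EX medians fell in the order TFAP2C 99.4, GATA2 91.1, ETS2 78.1, TFAP2A 29.4, GATA3 29, DLX5 25.2, TEAD4 19.3 and DLX3 16.4 CPM per kb. The one clear step was from ETS2 to TFAP2A, where ETS2 was the higher of the pair in 26 of 27 libraries. TFAP2C exceeded GATA2 in 16 of 27 libraries, GATA2 exceeded ETS2 in 18, TFAP2A exceeded GATA3 in 12, GATA3 exceeded DLX5 in 19, DLX5 exceeded TEAD4 in 15 and TEAD4 exceeded DLX3 in 19, so these neighbours were not separated beyond the spread between embryos. Among the paralogs, TEAD3 stood at 89.9 CPM per kb in EX, above TEAD4, while ELF5, an ETS factor that maintains trophoblast stem cells in the mouse, had a median of 2.32 CPM per kb. GATA1, ERG and FLI1 had no read in any of the 27 EX libraries.

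**Figure D1:**
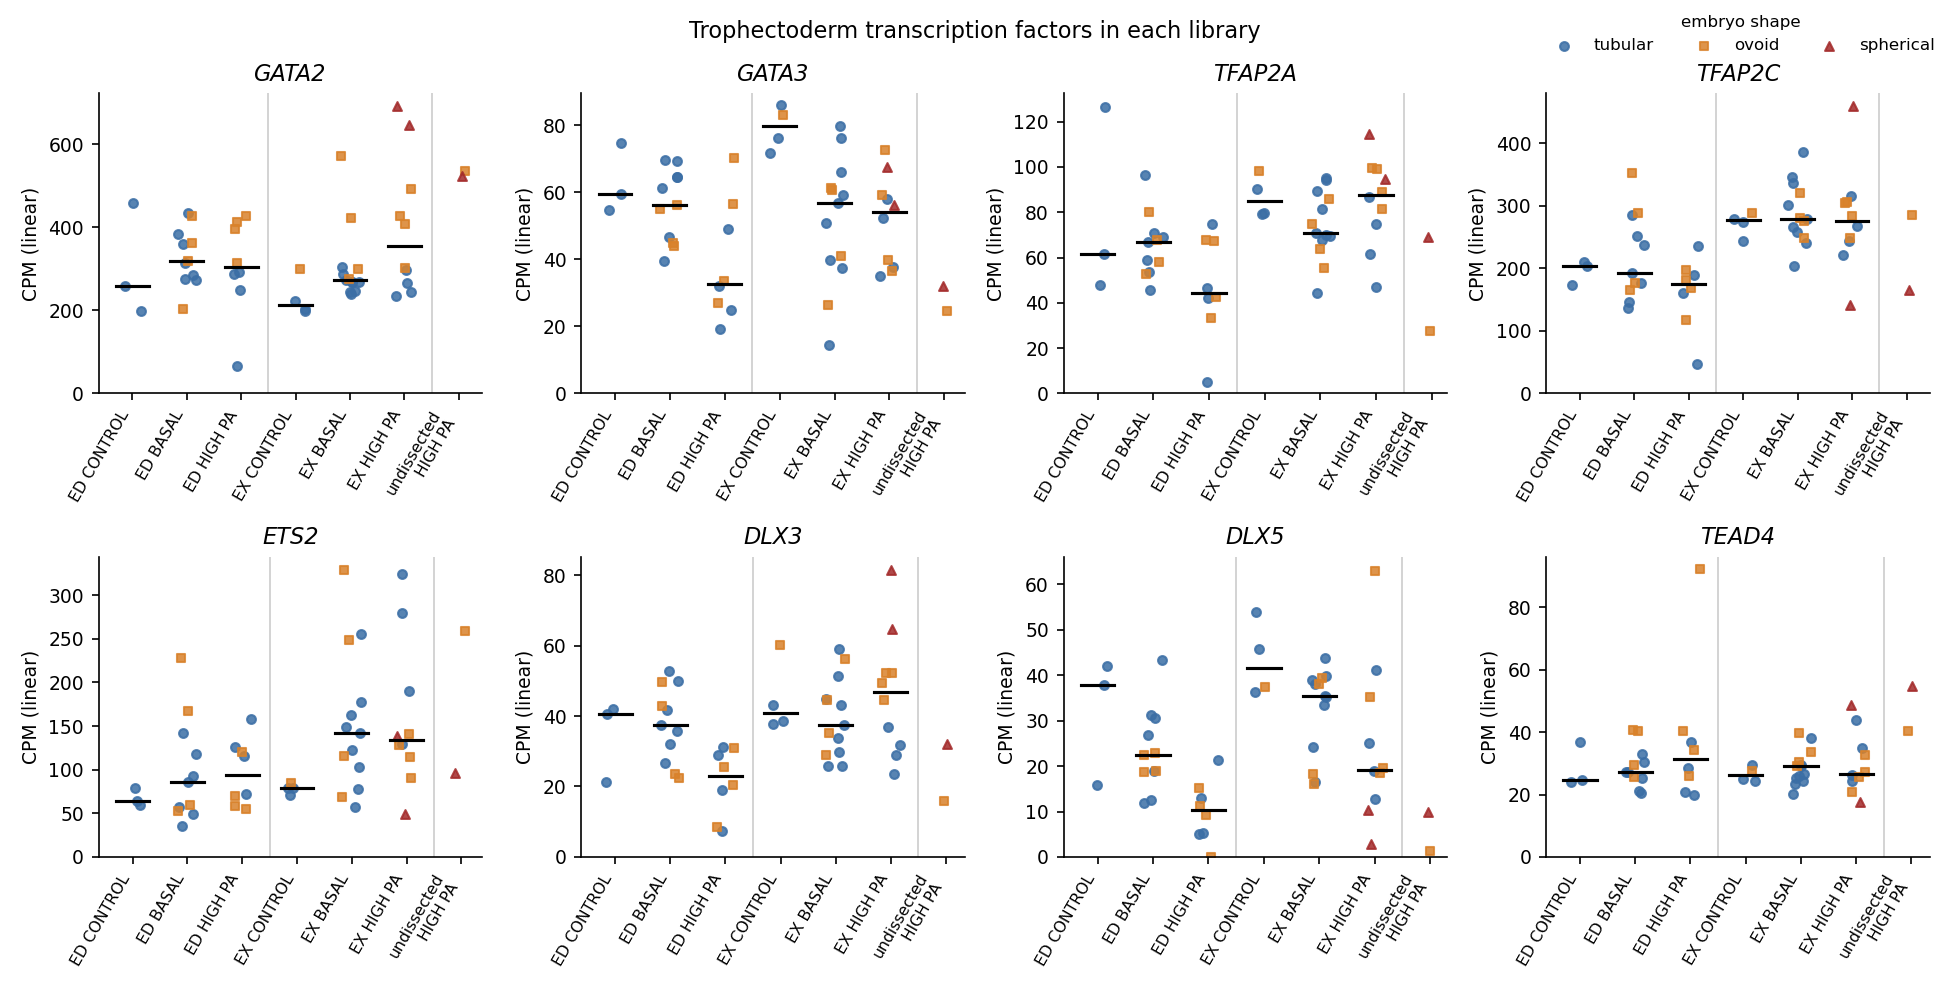
CPM (linear axis) of each factor in each library of at least 10000 exon reads, by tissue and medium, with 1 point per library, marked by embryo shape, and a bar at the group median. ETS2 spread from 48.7 to 329 CPM in EX, DLX5 was low in the HIGH PA discs, and GATA2 was highest in the spherical EX libraries.

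Do the factors mark the extra-embryonic tissue against the disc? In the discs GATA2 ran from 67.3 through a median of 315 to 460 CPM, GATA3 from 19.2 through 55.0 to 74.9 CPM, TFAP2A from 5.18 through 60.3 to 126 CPM and TFAP2C from 46.6 through 185 to 352 CPM. ETS2 ran from 35.1 through 75.8 to 228 CPM, DLX3 from 7.40 through 31.1 to 52.7 CPM, DLX5 from 0 through 18.8 to 43.3 CPM and TEAD4 from 20.0 through 27.9 to 92.3 CPM. None of the 8 factors separated the tissues: the ranges overlapped for every one. The share of all genes with overlapping ranges was not computed, so this does not set the factors apart from other genes. For 6 of the 8, all but ETS2 and DLX5, the lowest disc was ED HIGH PA replicate 3, the disc with the lowest trophoblast marker sum.

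Within embryos 5 of the 8 factors were higher in EX than in the disc (edgeR quasi-likelihood test with the embryo as a block, 46 libraries of 23 embryos, Benjamini-Hochberg adjusted p under 0.05). Of all 11921 genes tested, 55.3% passed in either direction, 24.5% higher and 30.8% lower in EX, so a call in itself is common in this comparison. The median log2 fold change of the 8 factors was 0.63, against -0.01 over all genes tested.

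ETS2, the interferon tau activator, was higher in EX than in its own disc in 21 of 22 embryos, with a log2 fold change of 0.89 (SE 0.0945, 95% interval 0.70 to 1.09, edgeR adjusted p = 3.0e-09). TFAP2C was higher in 20 of 22 embryos, by 0.81 (SE 0.115, adjusted p = 6.5e-07). DLX5 was higher in 18 of 22, by 1.00 (SE 0.189, adjusted p = 5.2e-05). These differences were steady for ETS2, whose embryos spanned -0.16 to 1.26 on the log2(CPM + 1) scale, and wide for DLX5, whose embryos spanned -0.72 to 4.28. The value of 4.28 belongs to the embryo of ED HIGH PA replicate 5, a disc with 0 reads of DLX5 among 119116. It therefore rests on the 1 CPM added to each value and is no measure of spread between embryos. TFAP2A was higher in EX in 17 of 22 embryos, by 0.65 (SE 0.173, adjusted p = 0.0020), and DLX3 in 16 of 22, by 0.61 (SE 0.137, adjusted p = 0.00040). The 5 calls were made in all 9 alternatives of the fit.

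The other 3 factors did not pass. GATA3 differed by 0.27 (95% interval -0.01 to 0.55, edgeR adjusted p = 0.101) and was higher in EX in 13 of 22 embryos. GATA2 differed by 0.22 (95% interval -0.03 to 0.47, adjusted p = 0.134) and was higher in 8 of 22. TEAD4 differed by 0.16 (95% interval -0.06 to 0.38, adjusted p = 0.207) and was higher in 9 of 22. These intervals leave room for a difference of up to about 0.55 in EX, and the fold of these 3 rested on the scaling. On total exon reads the paired median of all genes was -0.167, on the effective library sizes of edgeR's TMM method it was 0.0468, and on DESeq2 size factors it was 0.134. The paired median of GATA2 moved from -0.0988 through 0.144 to 0.234 and that of TEAD4 from -0.0433 through 0.227 to 0.313, so both changed sign between scalings. DESeq2 called all 8 factors higher in EX. Without ED BASAL replicate 12, the library with 0 reads of SOX2, EOMES and TF, GATA3 passed (0.32, edgeR adjusted p = 0.035), and without ED HIGH PA replicate 5, a library of 119116 reads, TEAD4 passed (0.23, adjusted p = 0.030).

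**Figure D2:**
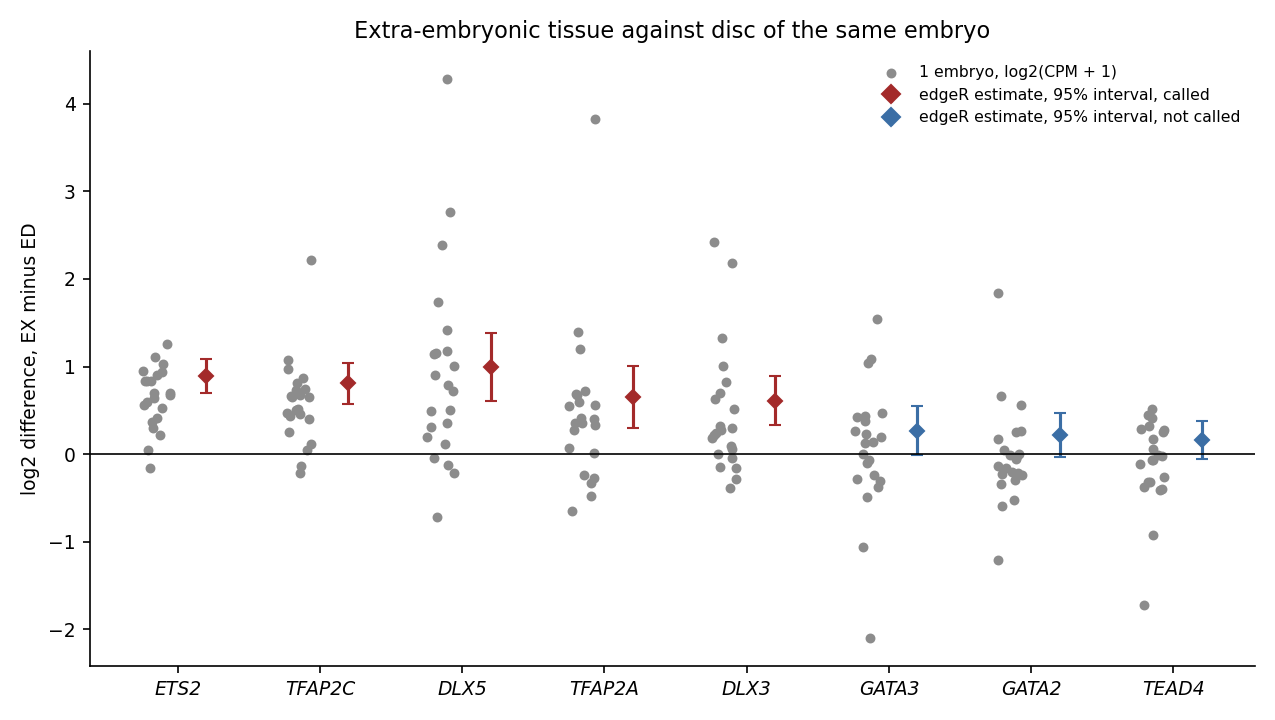
Log2 difference between extra-embryonic tissue and disc for each factor: grey points are embryos on the log2(CPM + 1) scale, and diamonds with bars are the edgeR estimate and its 95% interval. ETS2 lay above 0 in 21 of 22 embryos, while the intervals of GATA3, GATA2 and TEAD4 held 0.

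The relatives of the 8 factors did not share one direction. Of the 22 paralogs tested, 6 were higher and 9 lower in EX, with a median log2 fold change of 0.04. The lower paralogs of least p were ETV5 (-3.52, SE 0.222, edgeR adjusted p = 4.6e-14), ETV4 (-2.87, SE 0.243, adjusted p = 3.0e-11), both ETS factors downstream of FGF signalling, and TEAD2 (-2.25, SE 0.181, adjusted p = 9.9e-12). ETV5 had a median of 72.2 CPM in ED and 4.49 CPM in EX. TEAD2 was lower in EX in 22 of 22 embryos.

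In the Hippo pathway around TEAD4, 6 of 20 genes tested were higher and 6 lower, with a median of 0.02. CTGF, a common target of YAP1 and the TEAD factors, was higher in EX (0.91, SE 0.134, edgeR adjusted p = 1.2e-06), with medians of 101 CPM in ED and 159 CPM in EX. VGLL1, a cofactor of the TEAD factors, was also higher (0.65, SE 0.0976, adjusted p = 1.8e-06), and AMOTL1, an angiomotin that binds YAP1, was lower (-2.26, SE 0.206, adjusted p = 1.4e-10).

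Among 26 other regulators of trophectoderm and trophoblast, 8 were higher and 11 lower in EX, with a median of 0.01. The 3 of least p were lower there: ID1 (-4.69, SE 0.355, edgeR adjusted p = 2.7e-12), ID2 (-1.60, SE 0.150, adjusted p = 2.3e-10) and HAND1 (-4.87, SE 0.479, adjusted p = 7.0e-10). ID1 and ID2 are inhibitors of basic helix-loop-helix factors and targets of BMP signalling, and HAND1 is a basic helix-loop-helix factor that is also expressed in early mesoderm. ID1 stood at 84.6 CPM in ED and 2.21 CPM in EX.

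The epithelial genes and secreted products of the trophoblast did lean to EX, with 15 of 23 higher, 3 lower and a median of 0.43. DAB2, an endocytic adaptor, was higher (1.05, SE 0.145, edgeR adjusted p = 3.9e-07). The sodium pump subunit ATP1B1 (-1.29, SE 0.166, adjusted p = 1.2e-07) and the water and glycerol channel AQP3 (-1.92, SE 0.275, adjusted p = 7.7e-07) were lower.

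Did palmitic acid during oocyte maturation leave a trace in these factors 14 days later? In the discs 0 of the 8 factors differed between HIGH PA and BASAL after adjustment (edgeR quasi-likelihood test with medium and sex, 23 libraries). Of the 11040 genes tested 0 passed as well (0%). DESeq2 called 0 of the 8 factors and 2 genes in all. At an unadjusted p under 0.05, 4 of the 8 factors were lower in HIGH PA discs and 0 were higher, against 3.91% and 5.18% of all genes. Of the 8 estimates 7 lay below 0, and their median was -0.61 against 0.01 over all genes. Sex and medium partly ran together. Among the HIGH PA discs only replicate 5 came from a female embryo, and all CONTROL discs were male, while BASAL discs held both sexes. With the sex term 1004 genes had an unadjusted edgeR p under 0.05, and without it 535.

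DLX5 had the lowest unadjusted p of the set. The 8 HIGH PA discs held 0, 4.97, 5.18, 9.25, 11.2, 13.0, 15.2 and 21.4 CPM, and the 11 BASAL discs ran from 11.8 through a median of 22.4 to 43.3 CPM. The ranges overlapped, but 5 of the 8 HIGH PA discs lay below every BASAL disc. The means were 10.03 ± 6.7 CPM (SD, n = 8) in HIGH PA and 23.4 ± 9.1 CPM (SD, n = 11) in BASAL, and the log2 fold change was -1.21 (SE 0.319, 95% interval -1.87 to -0.56, edgeR unadjusted p = 7.7e-04, adjusted p = 0.437). The value at 0 came from ED HIGH PA replicate 5, whose 119116 reads allow up to 25.2 CPM (3 reads, for counting error only), so its DLX5 was not detectable at that depth. Over 19 alternatives the DLX5 estimate ran from -1.75 to -0.95, and it passed the adjusted threshold in 1 of them, without cow 07 (-1.75, adjusted p = 0.0426), where 97 genes passed. Without ED HIGH PA replicate 3 it was -1.09 (adjusted p = 0.634), and without ED BASAL replicate 12 it was -1.28 (adjusted p = 0.587).

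The other estimates in the discs were DLX3 -0.69 (SE 0.264), GATA3 -0.63 (SE 0.219), TFAP2C -0.63 (SE 0.233), TFAP2A -0.59 (SE 0.295), ETS2 -0.24 (SE 0.333), GATA2 -0.15 (SE 0.249) and TEAD4 0.06 (SE 0.227), all with an edgeR adjusted p of at least 0.483. DLX3 was the lowest of them. Its HIGH PA discs held 7.40, 8.40, 19.1, 20.3, 25.5, 29, 30.8 and 31.3 CPM, and 8 of the 11 BASAL discs lay above all of these. For GATA3, 5 of the 8 HIGH PA discs lay below every BASAL disc, yet the highest HIGH PA value, 70.3 CPM, exceeded the BASAL maximum of 69.6 CPM. Beside these values, the trophoblast marker sum had a median of 16584 CPM in HIGH PA discs (8708 to 21807) and 18965 CPM in BASAL discs (12580 to 22608), with none of the 8 measured markers at 0 in all discs of either medium. IFNT2, an interferon tau gene in this list, had medians further apart. They were 1025 CPM in HIGH PA discs (58.8 to 2654) and 1682 CPM in BASAL discs (522 to 2703). The epiblast sum had medians of 854 and 768 CPM. Whether the share of trophoblast cells in the dissected disc takes part in the lower values was not tested.

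In the extra-embryonic tissue, where 1 HIGH PA library without a labelled sex was left out of the fit, 0 of the 8 factors and 0 of 10969 genes (0%) differed between HIGH PA and BASAL with edgeR, and 0 factors and 0 genes with DESeq2. At an unadjusted p under 0.05 the count was also 0 of 8, where 3.66% of all genes were higher and 1.18% lower. The estimates ran from -0.26 for DLX5 (95% interval -0.87 to 0.36) to 0.25 for GATA2 (95% interval -0.12 to 0.62), and the median was 0.03 against 0.00 over all genes. TFAP2C gave -0.20 with an interval of -0.47 to 0.07. ETS2 gave -0.04 with an interval of -0.63 to 0.55. The GATA2 estimate became -0.02 when embryo shape was a term in the fit.

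The difference between the tissues was itself compared between media, with the embryo as a block. None of the 8 factors passed (edgeR, 0 of 8 and 0% of 11921 genes; DESeq2, 0 of 8 and 0 genes), and 3 had an unadjusted p under 0.05, all with a larger EX excess in HIGH PA embryos, where 1.69% of all genes had one in that direction and 1.38% in the other. They were DLX5 (1.26, SE 0.442, unadjusted p = 0.0082, adjusted p = 1), DLX3 (0.69, SE 0.329, unadjusted p = 0.046) and TFAP2C (0.55, SE 0.262, unadjusted p = 0.046). The per-embryo median difference of DLX5 was 1.44 in 8 HIGH PA embryos and 0.36 in 11 BASAL embryos on the log2(CPM + 1) scale. Leaving out ED BASAL replicate 12, ED HIGH PA replicate 3 or ED HIGH PA replicate 5 left 1 of the 8 under that level, DLX5; DLX3 then had an unadjusted edgeR p of 0.055, 0.110 and 0.102 and TFAP2C of 0.097, 0.104 and 0.055. The interaction and the comparison of the discs share the same disc libraries and are not separate evidence.

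CONTROL embryos, which had met neither fatty acid nor ethanol, all came from 1 flush of cow 813, so that medium and flush cannot be told apart. No factor passed against CONTROL in either tissue with edgeR (0% of genes called in each of the 4 comparisons) or with DESeq2, which called 1 gene in each EX comparison and 0 in each ED comparison. In EX, the CONTROL libraries held ETS2 at 70.9, 79.4, 79.4 and 85.1 CPM, a narrow band. BASAL libraries held 56.8 to 329 CPM (log2 fold change 1.06, SE 0.394, unadjusted p = 0.012, edgeR adjusted p = 0.881), and HIGH PA against CONTROL gave 1.02 (SE 0.409, unadjusted p = 0.019, adjusted p = 0.478). GATA3 leaned the other way, with 71.9, 76.3, 83.2 and 86.0 CPM in CONTROL, and 11 of 13 BASAL libraries lay below all 4. Its estimates were -0.59 for BASAL (SE 0.216, unadjusted p = 0.011) and -0.65 for HIGH PA (SE 0.229, unadjusted p = 0.0084). GATA2 held 198, 204, 224 and 300.3 CPM in CONTROL and gave 0.73 in HIGH PA against CONTROL (SE 0.260, unadjusted p = 0.0089). At an unadjusted p under 0.05 the counts in EX were 1 higher and 1 lower in BASAL, against 2.29% and 1.1% of all genes, and 2 higher and 1 lower in HIGH PA, against 6.44% and 3.2%.

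In the discs, the CONTROL libraries held DLX5 at 15.9, 37.7 and 42.1 CPM, and 7 of the 8 HIGH PA discs lay below all 3 (log2 fold change -1.35, SE 0.408, unadjusted p = 0.0027, edgeR adjusted p = 1.0). GATA3 was the other factor with an unadjusted p under 0.05 in HIGH PA against CONTROL discs (-0.73, SE 0.284, unadjusted p = 0.016), so 2 of 8 were lower and 0 higher, against 2.34% and 1.88% of all genes. In BASAL against CONTROL discs 0 of 8 had one, against 1.78% of genes higher and 1.65% lower, and DLX5 gave -0.14 (SE 0.416). The comparisons of HIGH PA with BASAL and with CONTROL share the HIGH PA libraries.

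**Figure D3:**
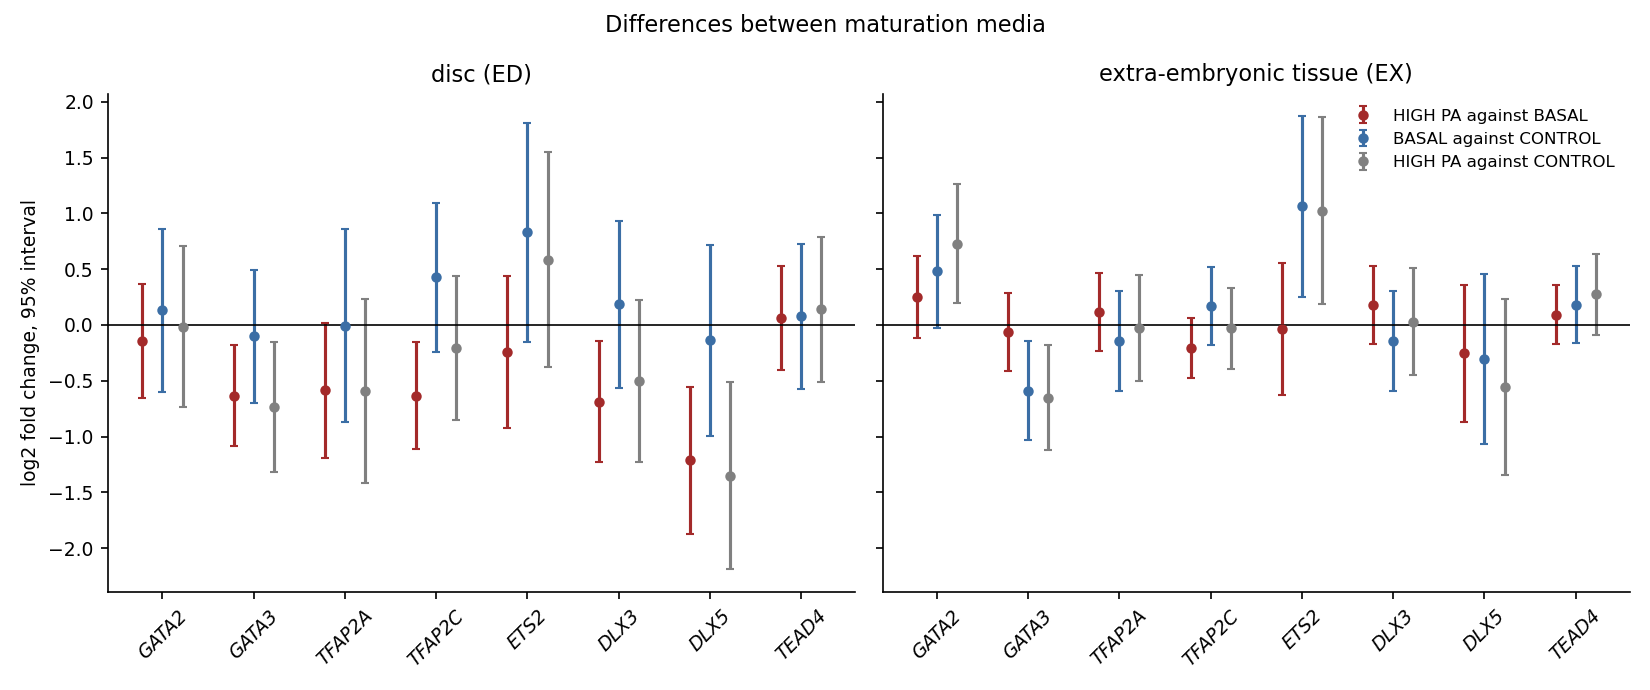
Log2 fold change between media for each factor with its 95% interval (edgeR), discs on the left and extra-embryonic tissue on the right. No difference passed adjustment; the lowest estimates were those of DLX5 in HIGH PA discs, at -1.21 against BASAL and -1.35 against CONTROL.

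Embryo shape gave 1 call. In EX, GATA2 was higher in ovoid than in tubular embryos, and it was the only 1 of the 8 factors to pass (edgeR with shape, medium and sex, 27 libraries), where 12.7% of 10969 genes passed, 6.94% higher and 5.73% lower in ovoid embryos. DESeq2 also called 1 of the 8. The 9 ovoid libraries ran from 275 through a median of 408 to 572 CPM and the 16 tubular libraries from 198 through 257 to 305 CPM, with 5 of the 9 ovoid libraries above every tubular one. The log2 fold change was 0.57 (SE 0.126, 95% interval 0.31 to 0.83, adjusted p = 0.0094). DLX3 gave 0.32 (SE 0.155, unadjusted p = 0.048, adjusted p = 0.141), and the other 6 lay between -0.06 and 0.11.

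The GATA2 call rested on which cows and libraries were compared, although its sign was positive in all 19 alternatives, 11 of which kept the call. With the cow as a block it was 0.44 (edgeR adjusted p = 0.260). Within BASAL it was 0.49 (adjusted p = 0.161) and within HIGH PA 0.66 (adjusted p = 0.209). Without cow 66 it was 0.40 (adjusted p = 0.126), without cow 07 0.57 (adjusted p = 0.0511) and without cow 813 0.56 (adjusted p = 0.207). With the sequencing lane as a term it was 0.54 (adjusted p = 0.140).

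A set of EX libraries carries an extra mark 2 in the deposited column names, whose meaning the sources used here do not give. They were 5 ovoid, 1 spherical and 1 tubular, and their mitochondrial share had a median of 10.7%, against 4.17% in the other 20. With this mark as a term the GATA2 difference was 0.36 (edgeR adjusted p = 0.145). Among libraries without the mark, the 4 ovoid ones averaged 351 ± 74.4 CPM (SD) and the 15 tubular ones 254 ± 31.8 CPM.

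The embryos of 1 flush allow a closer look, since they share cow and medium. In HIGH PA cow 07 the ovoid embryos held 493 and 302 CPM of GATA2 and the tubular one 234 CPM. In CONTROL cow 813 the ovoid embryo held 300.3 CPM and the tubular ones 224, 204 and 198 CPM. That ovoid embryo was female and the tubular ones were male, so shape and sex cannot be told apart in this flush. In BASAL cow 07 the ovoid and tubular embryos held 301 and 305 CPM, and in BASAL cow 12 the ovoid one held 275 CPM and the tubular ones 275 and 246 CPM. The ovoid embryos were therefore higher in 2 of the 4 flushes with both shapes and close to the tubular ones in the other 2. Both ovoid libraries of HIGH PA cow 07 carry the mark 2, with 11.03% and 10.7% mitochondrial reads against 3.34% in the unmarked tubular one, and the ovoid library of BASAL cow 07 carries it with 11.1% against 4.10%. The part of the mark and of the mitochondrial share was not tested within flushes.

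**Figure D4:**
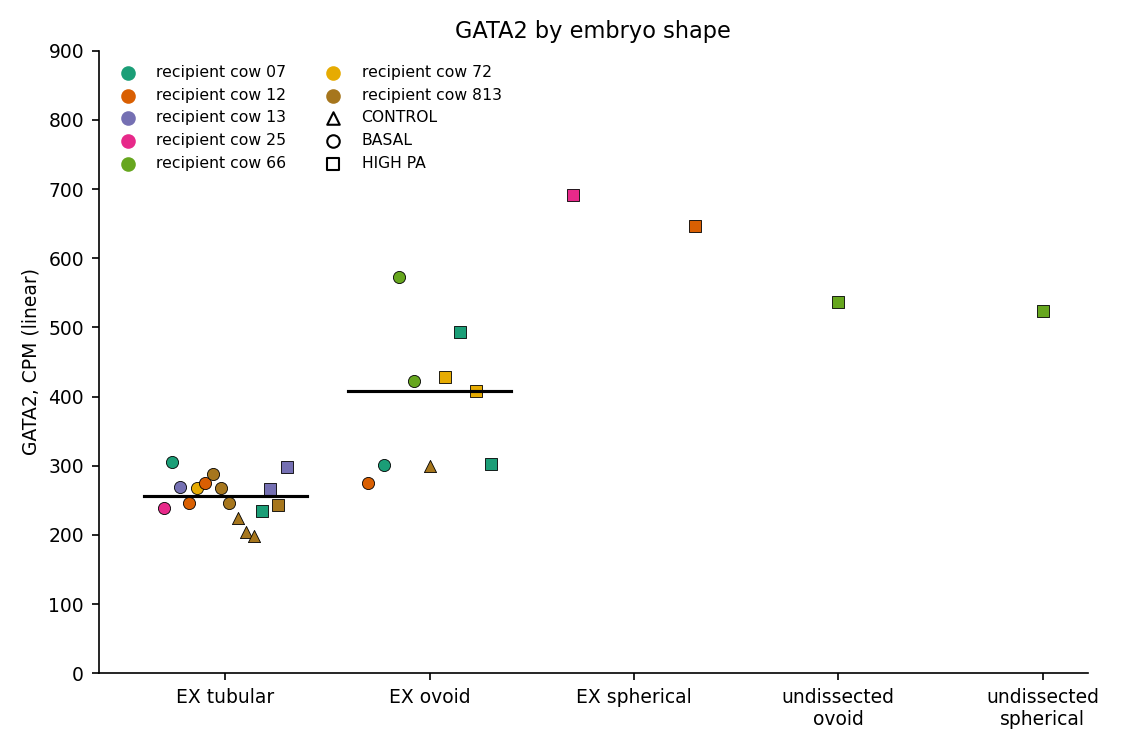
GATA2 in CPM (linear axis) by embryo shape in extra-embryonic and undissected libraries, coloured by recipient cow with the symbol giving the medium, and with bars at the medians of the tubular and ovoid EX groups. Tubular EX libraries lay between 198 and 305 CPM, ovoid ones between 275 and 572 CPM, and the 2 spherical ones at 647 and 692 CPM.

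The 2 spherical EX libraries, from cows 12 and 25, lay past both other shapes in 3 factors. The share of all genes that did so was not computed, so this count does not set the factors apart from other genes. GATA2 was 647 and 692 CPM, above every other library. DLX3 was 64.7 and 81.4 CPM, above the ovoid maximum of 60.3 CPM and the tubular maximum of 59.0 CPM. DLX5 was 2.94 CPM, which is 1 read, and 10.3 CPM, below the lowest ovoid value of 16.1 CPM and the lowest tubular value of 12.7 CPM. IFNT2, an interferon tau gene, was 247 and 47.7 CPM there, with a median of 2242 CPM in ovoid and 3399 CPM in tubular EX libraries. Other cell types' markers stood apart there too. The library of cow 12 had the highest sum of maternal blood and uterus markers in EX, 100.0 CPM with 8 of 10 markers at 0 against at most 22.8 CPM elsewhere, and the lowest hypoblast sum, 1429 CPM with 11 of 20 markers at 0. The library of cow 25 had the highest epiblast sum in EX, 598 CPM with 6 of 11 markers at 0 against at most 326 CPM elsewhere. Their part in the values was not tested. In the other 5 factors the 2 libraries did not lie past the other shapes on the same side; TFAP2C was 459 and 141 CPM, above the highest and below the lowest of them. Both spherical EX libraries were on lane 1, which held no ovoid or tubular EX library, so spherical shape and lane cannot be told apart here. These libraries held 340016 and 1068407 reads, 1 of them has no labelled sex and was left out of the fits with sex, and no test is given for 2 libraries of 1 medium.

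In the discs 0 of the 8 factors differed by shape (edgeR, 0% of 11040 genes; DESeq2, 0 factors and 16 genes). TEAD4 had the only unadjusted p under 0.05, as had 2.97% of all genes in the higher and 4.33% in the lower direction. Ovoid discs ran from 25.7 through 37.2 to 92.3 CPM and tubular discs from 20.0 through 26.3 to 36.9 CPM, and the log2 fold change was 0.46 (SE 0.193, unadjusted p = 0.026, adjusted p = 0.648), or 0.38 without ED BASAL replicate 12 (unadjusted p = 0.070). GATA2 gave 0.33 in the discs (95% interval -0.15 to 0.82), with medians of 379 CPM in ovoid and 287 CPM in tubular discs. The difference between tissues did not pass a test against shape for any factor (edgeR, 0 of 8 and 0% of genes, 0 of 8 at an unadjusted p under 0.05 beside 7.3% of genes higher and 7.02% lower; DESeq2, 0 of 8 and 63 genes). For GATA2 that interaction was 0.10 (95% interval -0.45 to 0.65).

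Among the lists around the 8 factors, 4 paralogs were higher and 4 lower in ovoid EX. ELF5 was higher (0.60, SE 0.151, edgeR adjusted p = 0.018), as was DLX4 (0.70, SE 0.180, adjusted p = 0.019), another distal-less factor, and ETS1 was lower (-1.20, SE 0.314, adjusted p = 0.020). In the Hippo list the kinase LATS2 was higher (0.43, SE 0.112, adjusted p = 0.019) and the kinase activator MOB1B lower (-0.34, SE 0.109, adjusted p = 0.040), with no call for the other 18. Of the 25 other regulators 2 were higher and 1 lower. PPARG, a nuclear receptor needed for placental development, was lower (-1.32, SE 0.338, adjusted p = 0.019). TFEB, a lysosomal regulator, was higher (0.50, SE 0.129, adjusted p = 0.019), as was ESRRB, an orphan nuclear receptor (2.39, SE 0.690, adjusted p = 0.030), at medians of 0.645 CPM in ovoid and 0.0949 CPM in tubular libraries.

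Of the 24 epithelial genes and products 1 was higher and 4 were lower in ovoid EX. PTGS2, the inducible prostaglandin synthase, was lower (-2.68, SE 0.519, edgeR adjusted p = 0.0045), with medians of 383 CPM in ovoid and 1455 CPM in tubular libraries. IFNT2 was lower (-1.13, SE 0.294, adjusted p = 0.019), and AQP3 was higher (1.46, SE 0.333, adjusted p = 0.011). Of the 2 factors that act at the interferon tau gene, ETS2 gave -0.06 (95% interval -0.58 to 0.46) and DLX3 gave 0.32, and neither passed. All these shape calls share the limits given for GATA2, since with the cow as a block 0 genes were called in all.

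The ETS2 level in the disc went with the level in the extra-embryonic tissue of the same embryo. Over 22 embryos the correlation of log2(CPM + 1) was r = 0.887 (Spearman's rho 0.858), and r = 0.853 without the 2 embryos farthest from the median. For the other factors r ran from -0.072 for TFAP2A to 0.528 for TFAP2C. The points share flushes, and the 2 parts of an embryo share its cow, medium and sex, so these are descriptions.

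ETS2 levels differed between flushes of the same medium. In EX, BASAL cow 66 held 248 and 329 CPM, HIGH PA cow 13 held 280 and 324 CPM, and the BASAL embryos of cow 813 held 163 to 255 CPM. Low values came from the same media: BASAL cow 07 held 68.8 and 77.4 CPM and BASAL cow 13 held 56.8 CPM. Cow 813 gave 70.9 to 85.1 CPM with CONTROL embryos, all below its BASAL embryos, and cow 13 gave its high values with HIGH PA and its low one with BASAL. That low value rests on a single library, EX BASAL replicate 11, which carries the mark 2 and has 20.9% mitochondrial reads. The embryos of HIGH PA cow 07 spread from 90.4 to 190 CPM, so flushes were not uniform throughout. Fitted ETS2 differences in the discs changed sign with the cows. HIGH PA against BASAL gave -0.24, then 0.76 with the cow as a block and 0.33 without cow 66. Ovoid against tubular gave 0.02, then -0.35 with the cow as a block and -0.61 without cow 66. None of these passed the adjusted threshold.

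**Figure D5:**
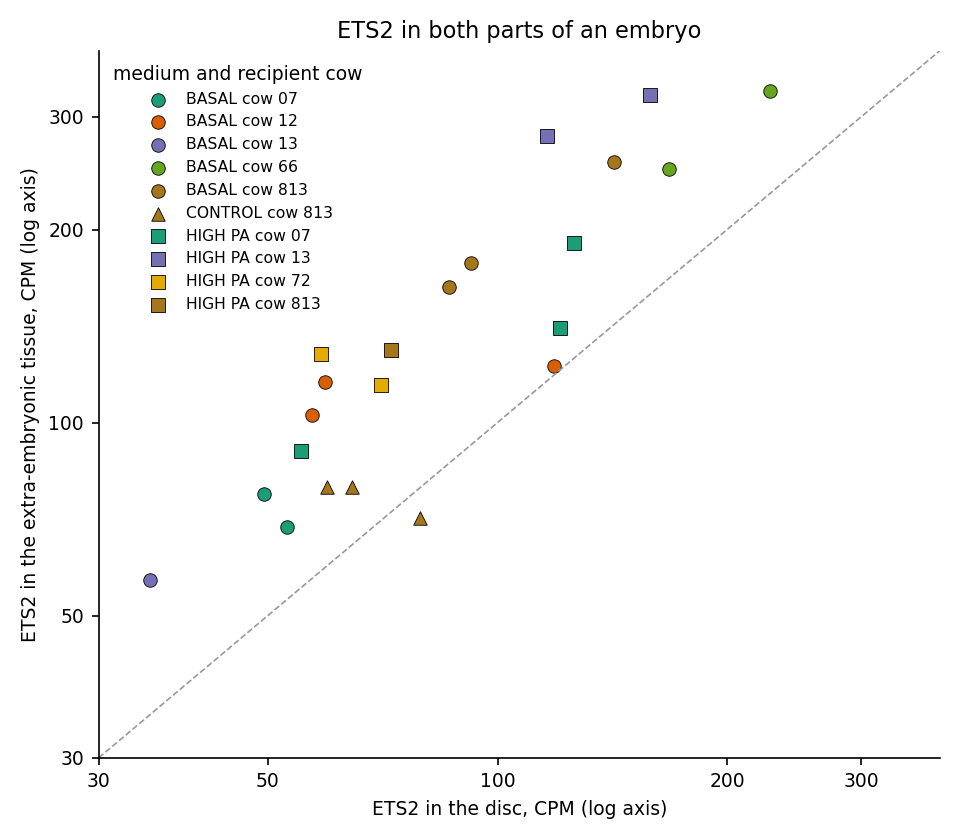
ETS2 in the disc (x axis) and the extra-embryonic tissue (y axis) of the same embryo, CPM on log axes, with 1 point per embryo coloured by recipient cow and shaped by medium; the dashed line marks equal levels. Of 22 embryos 21 lay above the line, with the pair of BASAL cow 66 at 248 and 329 CPM and the embryos of HIGH PA cow 07 at 90.4 to 190 CPM in EX.

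Within the discs ETS2 ran against the epiblast factor SOX2, with r = -0.821 over 22 discs (rho -0.796) and r = -0.768 without ED BASAL replicate 12. TFAP2C did so too (r = -0.642, and -0.570 without that disc). The other 6 factors had r between -0.275 and -0.081 with SOX2. These points share libraries, depth and flushes.

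Among GATA2, GATA3, TFAP2A, TFAP2C, DLX3 and DLX5, all 15 pairs had r above 0 over the 22 discs (0.121 to 0.824, median 0.652, with a median rho of 0.481), while over the 27 EX libraries r was above 0 in 10 of the 15 (-0.670 to 0.63, median 0.116). By rank the tissues were closer: rho was above 0 in all 15 pairs in the discs and in 13 in EX, where its median was 0.249. ETS2 and TEAD4 were left out of these counts, which therefore describe the picked genes only. In the discs TEAD4 had r = -0.614 with DLX5 (but rho -0.287) and 0.244 with GATA2 (rho 0.110). ED HIGH PA replicate 5, a library of 119116 reads, held both 0 reads of DLX5 and the highest TEAD4 value, 92.3 CPM. Its part in the r of TEAD4 with DLX5 was not tested. ETS2 had r = -0.250 with GATA3 and 0.400 with TFAP2C there. The share of all gene pairs with r above 0 was not computed. Without ED HIGH PA replicate 3 the median r in the discs was 0.408, with 14 of the 15 pairs above 0. In EX the strongest pairs were GATA2 with DLX5 (r = -0.670, rho -0.447, n = 27), TFAP2A with DLX3 (r = 0.63, rho 0.63) and TFAP2A with ETS2 (r = -0.596, rho -0.626). The 2 spherical libraries held the highest GATA2 and the lowest DLX5 values in EX, and their part in the r of that pair was not tested. In the discs they were DLX3 with DLX5 (r = 0.824, rho 0.784, n = 22) and GATA2 with TFAP2A (r = 0.798, but rho 0.383). The pairs of the discs hold ED HIGH PA replicate 3, which was lowest in both GATA2 and TFAP2A.

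For each factor the 3 named genes of most like level were taken from 9629 genes over the 27 EX libraries, by Pearson's r of log2(CPM + 1). GATA2 went with TRABD (r = 0.944), ABHD12, a lipid hydrolase (0.928), and PNPLA2, the adipose triglyceride lipase (0.923). ETS2 went with PLAU, the urokinase plasminogen activator (0.906), CSRNP1 (0.880) and TRIB1 (0.860), with r of 0.891, 0.902 and 0.808 without the 2 farthest libraries. GATA3 went with SENP1, a SUMO protease (0.881), SMG8 (0.873) and CEP85 (0.853). TEAD4 went with TTYH2 (0.866), TRIM8 (0.844) and INPPL1 (0.804), and DLX5 with SSR3 (0.844), SUOX (0.836) and VIMP (0.832), where r became 0.791, 0.606 and 0.551 without the 2 farthest libraries. The likeness was lower for DLX3, with CTNS, the lysosomal cystine carrier (0.766), APCDD1 (0.706) and TUBA3D (0.698), and for TFAP2A, with MED18 (0.704), COX11 (0.676) and C6orf62 (0.643). That of TFAP2C rested on 2 libraries: its r with RNF123 was 0.763 and became 0.390 without the 2 farthest, with C20orf196 0.743 and 0.352, and with the gene named Mail 0.742 and 0.350. No other member was among the 3 most alike genes of any factor.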

How the data were processed

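Libraries were poly(A)-selected, stranded and paired-end, made from the disc or the extra-embryonic tissue of single embryos, per the labels' protocols. The authors deposited gene-level counts on UMD3.1 (all exon reads, uniquely placed exon reads and intron reads), per the file headers and the submitters' processing notes, which also name DESeq2 1.10.1. The aligner, the counter and whether counting used strand are not given in the sources used here. All exon read counts were used as deposited.

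Groups followed the labels. Genes were filtered with filterByExpr by tissue and medium, scaled by TMM and tested with edgeR 4.0.16 (quasi-likelihood, R 4.3.3) over the whole table, with Benjamini-Hochberg adjustment at 0.05. Standard errors were derived from the estimate and its F statistic. DESeq2 1.42.0 was an alternative. The procedure was tested on simulated data. EX against ED used the embryo as a block, since the labels tie both parts to 1 embryo; comparisons within a tissue used medium and sex, with shape where shape was tested. Levels are CPM of all exon reads, and differences per embryo use a pseudocount of 1 CPM. The 95% intervals of fold changes come from the quasi-likelihood fit, so they take in its estimate of the spread between libraries. Exact intervals of a read count and floors of 3 reads cover counting error only. Embryos are separate animals but share flushes, which the fits without a cow term do not allow for.

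The 8 factors, the lists around them and the tests were chosen with earlier results of these data known. The named genes are all 8 factors, up to 3 called genes of lowest p per list in EX against ED and in ovoid against tubular EX, and the 3 genes most alike each factor. The other marker lists of streak and mesoderm, hypoblast and yolk sac, and maternal blood and uterus had median sums of 197, 13080 and 40.2 CPM in BASAL discs and 66.4, 5569 and 10.2 CPM in BASAL EX. POU5F1, NANOG, CDX2 and GATA6 were not analysed here. No 2 of the 1378 library pairs held identical values. Alternatives were another tool, scaling, filter and count, left-out libraries and cows, and added terms; the lane and mark 2 terms, and leaving out ED HIGH PA replicates 3 and 5, were chosen after seeing the data.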

Additional observations from a re-analysis of the deposited data

Results flagged for a closer look

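TEAD4 in ED HIGH PA replicate 5 stood at 92.3 CPM, far from the other 7 HIGH PA discs, of which the next was 40.5 CPM; the gap was 0.717 of the range of the group. It rests on 11 reads among 119116 (exact 95% interval 46.1 to 165 CPM, counting error only). Of 24 sets of values looked at this way (8 factors in 3 groups of 4 to 10 libraries), this was the only one with such a library, and chance gives about 1 in 20.

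The 2 undissected HIGH PA embryos, both of cow 66, enter no comparison. They lay above the highest of all 7 CONTROL libraries in 3 of the 8 factors, 6 of 16 values. The share of all genes that did so was not computed, so this count does not set the factors apart from other genes. GATA2 was 524 CPM in the spherical and 537 CPM in the ovoid embryo, against a CONTROL maximum of 460 CPM. ETS2 was 96.6 and 259 CPM against 85.1 CPM, and TEAD4 was 54.7 and 40.5 CPM against 36.9 CPM. By their labels these embryos hold disc and extra-embryonic tissue together, whereas each CONTROL library holds one of them. SOX2, however, was only 0.711 CPM in the spherical and 0.319 CPM in the ovoid embryo. Its median was 15.2 CPM in ED, and it reached at most 0.356 CPM in EX. The CONTROL libraries come from cow 813 alone. The part of tissue, cow or medium in the values of the undissected embryos was not tested.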

How the results depend on the processing

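Of 137 recomputed counts of called factors 127 stayed within 1.5 times the count reported and 10 did not. In EX against ED, DESeq2 called 8 in place of 5; the fit without the embryo pairing (no replicate block) called 5. In HIGH PA against BASAL discs, leaving out cow 07 gave 1 in place of 0. For ovoid against tubular EX the count of 1 became 0 with the cow as a block, within BASAL, within HIGH PA, without cow 07, 66 or 813, with the lane term and with the mark 2 term. All genes called in that comparison numbered 1390, and 906 with DESeq2, 497 with a term for the well letter, 21 with mark 2, 2 with lane, 1 within BASAL and 0 within HIGH PA or with the cow block; without cow 13, 72, 07, 66 or 813 they numbered 4081, 3006, 124, 69 and 3. The cause of these differences was not tested.

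Of 1088 recomputed log2 fold changes of the factors, 1046 kept their direction or moved by at most 1 SE across 0, and their side of the threshold; 8 lost and 8 gained the call, and 26 of 98 changes of sign exceeded 1 SE of the value reported, all uncalled. For HIGH PA against BASAL these were, in ED, ETS2 at 0.76 (cow block) and 0.33 (without cow 66), and, in EX, ETS2 at 0.25 (cow block) and 0.26 (without cow 66), GATA2 at -0.018 and DLX3 at -0.011 (shape term). With 1 CONTROL replicate left out, GATA2 in HIGH PA against CONTROL ED lay between -0.28 and 0.37, the latter without replicate 1. For ovoid against tubular ED they were GATA2 at -0.014 (BASAL only), GATA3 at -0.33, TFAP2C at -0.26 and ETS2 at -0.35 (cow block), and ETS2 at -0.58 (HIGH PA only) and -0.61 (without cow 66). For ovoid against tubular EX they were, within BASAL, TFAP2A at -0.18, TFAP2C at -0.10, ETS2 at 0.44 and DLX5 at -0.32; with mark 2, GATA3 at 0.26, TFAP2A at -0.12 and DLX5 at -0.40; without cow 07, TFAP2A at -0.15 and DLX5 at -0.66; and TEAD4 at -0.24 (HIGH PA only), -0.049 (without cow 66) and -0.069 (lane). In the tissue by HIGH PA interaction TEAD4 was 0.25 without ED HIGH PA replicate 5 and -0.14 without replicate 3. At its depth 1 read is 8.40 CPM in ED HIGH PA replicate 5, where DLX5 had 0 reads and DLX3 had 1. Of 72 group means, 1 moved by over 1 SD on TMM sizes, GATA2 of the undissected pair, from 530.3 to 519 CPM.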
